A study of Homo sapiens with 9 samples.

Results

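The DDX and DHX genes encode the DEAD-box and DEAH-box families of RNA helicases and a few close relatives. In these data they were taken by symbol, as every gene named DDX or DHX followed by digits and at most a final A, B or X, with DDX58 left out. The rule found 45 of the 28717 genes of the deposited table and 237 of its 90652 transcripts, on 18 chromosomes. The rule used no measured value. Of these, 41 genes and 168 transcripts had enough signal to be tested.

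RNA was sequenced from SNU16, an established human gastric carcinoma cell line of genotype WT. The untreated control, the cells given 7.69 µM 5-fluorouracil (5-FU) and the cells given 80 µM hydrogen peroxide (H2O2) were all sampled at 24 h, with 3 libraries each, and no other agent or alteration is named for any group. 5-FU is an antimetabolite that blocks thymidylate synthase and is also built into RNA, and H2O2 is a reactive oxygen species. The labels do not say that the 3 libraries of a group came from separate cultures, so a p-value here reflects the spread between libraries, which may be technical. All 3 groups come from 1 cell line.

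RNA helicases of these families use ATP to pull apart short RNA duplexes or to strip proteins from RNA. DEAD-box proteins act locally and let go, whereas many DEAH-box proteins move along the strand, and members of both drive the successive rearrangements of the spliceosome. Others work in the assembly of ribosomes, in the export and translation of mRNA, in its decay, or in the detection of viral RNA.

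The values are FPKM, read fragments scaled by transcript length and by library size, as deposited for single transcripts. Most of the listed helicase transcripts are not the mRNA. By GENCODE V29, matched on the transcript identifier, 199 of the 237 are retained-intron transcripts, 2 are processed transcripts, 2 are protein-coding and 34 are not in that release. Retained-intron transcripts made up 87.01% of the summed helicase FPKM over all libraries and transcripts not in V29 made up 12.36%. A level given for a gene below is therefore the sum of such transcripts, and a difference in it is not a difference in mRNA or protein. In bulk RNA, fewer cells with a transcript and less of it per cell cannot be told apart.

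A retained-intron model is a transcript that keeps sequence which other transcripts of the gene splice out. Of the 199, 198 ran over at least 1 intron edge of the same gene, with a median length of 841.0 bases and a range of 235 to 7473, and 93 held at least 1 whole intron. Together they held 108 different whole introns in 28 genes, with a median length of 300 bases and a range of 76 to 3940 bases. Of these introns, 105 began with GT and ended with AG, the usual splice signals. Each window below shows 1 exon-intron junction that a transcript described later in the text runs across. Each gives 20 exon bases in lower case and then the first 10 intron bases in capitals, 5′ to 3′ on the strand of the gene, from GENCODE V29 transcripts on GRCh38.
DDX46-209, plus strand, intron chr5:134777726-134781132: gtggtgggggaaatgaaaagGTATGGAATT
DDX60-203, minus strand, intron chr4:168225677-168236251: tcgagttttatcaatcaaagGTAAACTGTG
DDX23-203, minus strand, intron chr12:48837394-48837523: aggaactgcatgccattaagGTGCAGGCCT
DDX11-224, plus strand, intron chr12:31089152-31089402: tctcccttggctcccggcagGTAAACAGTA
DDX39A-204, minus strand, intron chr19:14412679-14413012: ctttgagcatccttctgaggGTACGCCTTC
DDX52-211, minus strand, intron chr17:37619840-37620872: gataagccattattaagaagGTAAATTAGA
DHX8-203, plus strand, intron chr17:43517323-43520129: gcacagtgctgtcactcaagGTAGAAATCA
DDX17-210, minus strand, intron chr22:38492116-38493709: aagagattgggtacttaatgGTAAGTTTAA

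DDX46-211 starts inside the same intron as DDX46-209 and crosses its other end. The next window shows that 3′ junction, with the last 20 intron bases in capitals before 10 exon bases in lower case.
DDX46-211, plus strand, intron chr5:134777726-134781132: ATATTTGTTCTTTATTTTAGaagtctgggc
All 8 of the 5′ windows start the intron with GT. Over all the retained-intron models, 185 of the 189 introns entered from the 5′ side did so. Some of these models cross other intron edges too. DDX11-224 crosses edges of or holds 5 introns, DDX39A-204 4, and DDX52-211 and DDX60-203 2 each. FPKM belongs to the whole model and does not say whether reads crossed the junction shown. Models of 1 gene overlap, and how their shared reads were divided was not tested, which holds for every value of a single transcript and for transcripts of 1 gene that differ in opposite directions.

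Summed over all members, the helicases of the 3 groups lay in the same range. Their level was 468.6, 418.3 and 479.4 FPKM in the control libraries, 474.2, 473.7 and 535.4 in 5-FU and 427.0, 488.5 and 532.0 in H2O2. The group means were 455 ± 32.6, 494 ± 35.5 and 483 ± 52.7 FPKM (SD, n = 3 each), and the 3 groups overlapped. The sum was between 0.740% and 0.883% of all listed FPKM in a library, and 39 to 41 of the 45 genes reached 0.5 FPKM. The retained-intron share of the sum lay between 84.0% and 90.1%.

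A few genes carried much of that sum. The most abundant 6, DDX17, DDX3X, DDX39B, DDX42, DDX47 and DDX21, held 46.3% of it, at means over 9 libraries of 52.3, 42.1, 36.5, 35.3, 32.8 and 22.4 FPKM. In all, 8 genes averaged 20 FPKM or more, 16 lay between 5 and 20, 14 between 1 and 5, and 7 under 1. The median tested helicase gene was at 8.47 FPKM, against 2.01 FPKM for all 9947 genes tested.

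At the low end were genes with little or no listed signal. DDX4, a germ-cell helicase, and DDX43, known mainly from testis and tumours, were listed at 0 in every library. DDX25, a testis helicase, was at 0 in 6 libraries and at 0.201 FPKM at most. DHX33, a ribosome biogenesis factor, fell just outside the requirement of 0.5 FPKM in 3 libraries, with only control replicate 3 (0.983) and H2O2 replicate 3 (1.20) above it, while DHX35 was just inside at a mean of 0.582 FPKM.

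**Figure D1:**
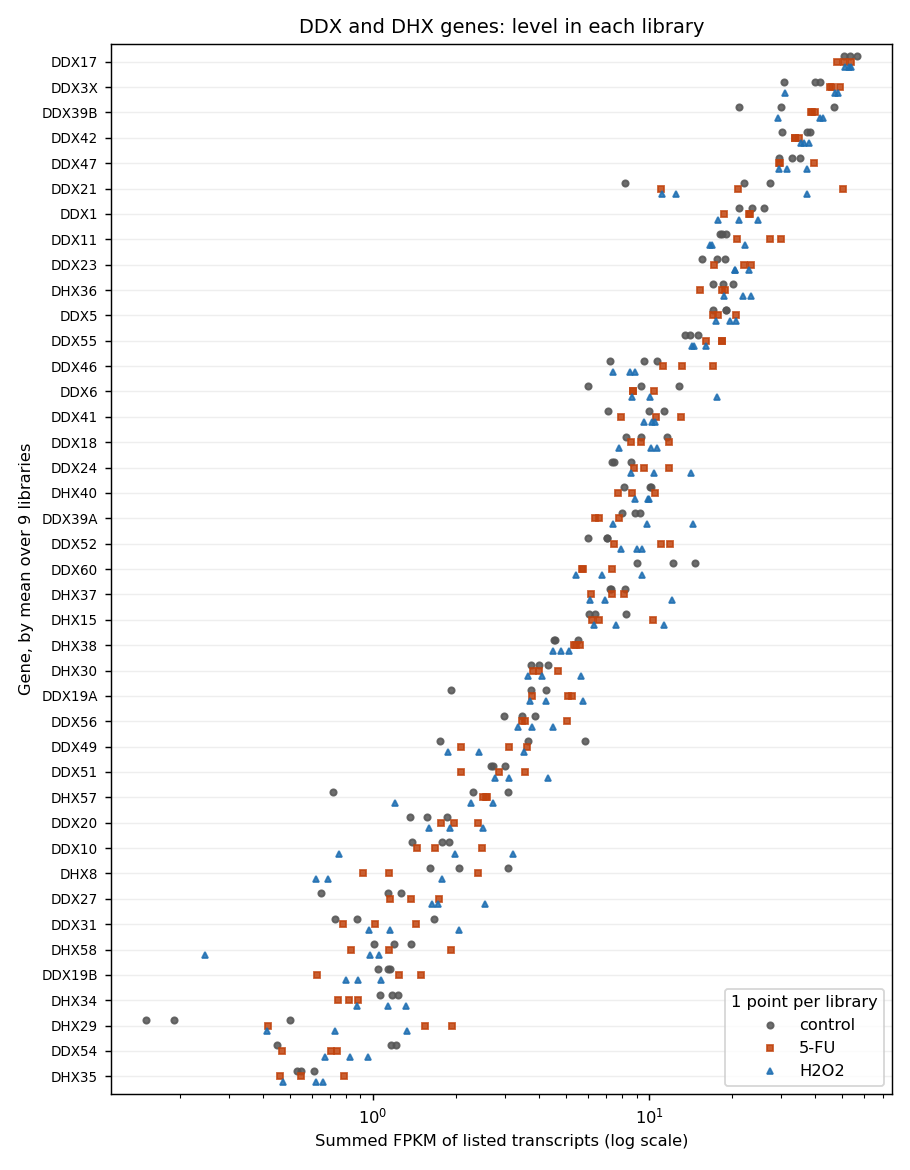
Level of each of the 41 tested DDX and DHX genes in each of the 9 libraries, as summed FPKM of its listed transcripts on a log scale, with genes ordered by their mean and 1 point per library coloured by group. Most genes show the 3 groups on top of each other, from about DDX17 at 48.1 to 56.5 FPKM down to DHX35 at 0.460 to 0.783 FPKM, and DDX21 spreads widely in every group.

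The libraries of a group differed little for most members and much for a few. On the log2(FPKM + 0.5) scale the within-group SD had a median of 0.25 over the tested helicase genes, against 0.29 over all genes tested and 0.27 over the 4685 of these with a mean level between the quartiles of the helicases. It was under 0.2 for 13 members and over 0.5 for 6, namely DDX21, DHX29, DHX57, DDX49, DHX8 and DDX10. DDX17, which works with DDX5 in splicing and transcription, had the smallest spread at 0.07. Its 9 values ran from 48.1 to 56.5 FPKM without any order by group. DDX21, a nucleolar helicase of ribosomal RNA production, had the largest at 0.97. It stood at 22.1, 8.18 and 27.5 FPKM in control, 21.0, 11.03 and 50.5 in 5-FU and 12.5, 11.2 and 37.3 in H2O2. Within each group the library numbered 3 was the highest, and 1 transcript, DDX21-209, ran from 3.96 to 39.3 FPKM and held 36.1% to 77.9% of the gene's level.

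The comparison of 5-FU with control asks which helicase transcripts differ after the drug. None of the 41 helicase genes passed an adjusted p of 0.05 (limma, Benjamini-Hochberg over all 9947 genes), where 0.774% of all genes did. At an unadjusted p under 0.05 there were 6 helicase genes, or 14.6%, against 15.5% of all genes. The 3 libraries of each group did not overlap for 9 helicase genes, or 22%, against 22.3% of all genes. Of the 41, 6 were higher in 5-FU without overlap, as were 12.8% of all genes, and 3 were lower without overlap, as were 9.56% of all genes. The median log2 difference was 0.04, next to 0.03 for all genes, and 27 of 41 were above 0, against 53.8% of all genes. The shares at an unadjusted p under 0.05 and without overlap were thus close to those of all genes. The 95% confidence interval of the log2 difference lay within 1 of 0 on both sides for 33 of the 41, or 80.5%, against 71.3% of all genes.

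For H2O2 against control, again none of the 41 passed the adjusted threshold, as for all genes (0.0%). The unadjusted p was under 0.05 for 4 helicase genes, or 9.8%, next to 9.07% of all genes. The groups did not overlap for 4 genes, DDX23, DDX24, DDX27 and DDX52, or 9.8% against 15.4% of all genes. All 4 were higher in H2O2, where 8.86% of all genes were higher and 6.51% lower without overlap. The median log2 difference was 0.07 against 0.03 over all genes, with 28 of 41 above 0 and 53.9% of all genes above 0. The 2 comparisons with control share the same control libraries, so a gene that differs in both is not an independent repeat.

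Set against each other, 5-FU and H2O2 differed for no helicase gene at the adjusted threshold, which 0.0704% of all genes passed. The unadjusted p was under 0.05 for 3 genes, DDX11, DDX39A and DDX46, against 11.6% of all genes. The groups did not overlap for DDX46 and DHX38, higher in 5-FU, and for DDX42, higher in H2O2, 7.3% of the helicases against 17.7% of all genes (9.42% higher and 8.32% lower in 5-FU). The median was 0.02, with 22 of 41 above 0 and 50.4% of all genes above 0.

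**Figure D2:**
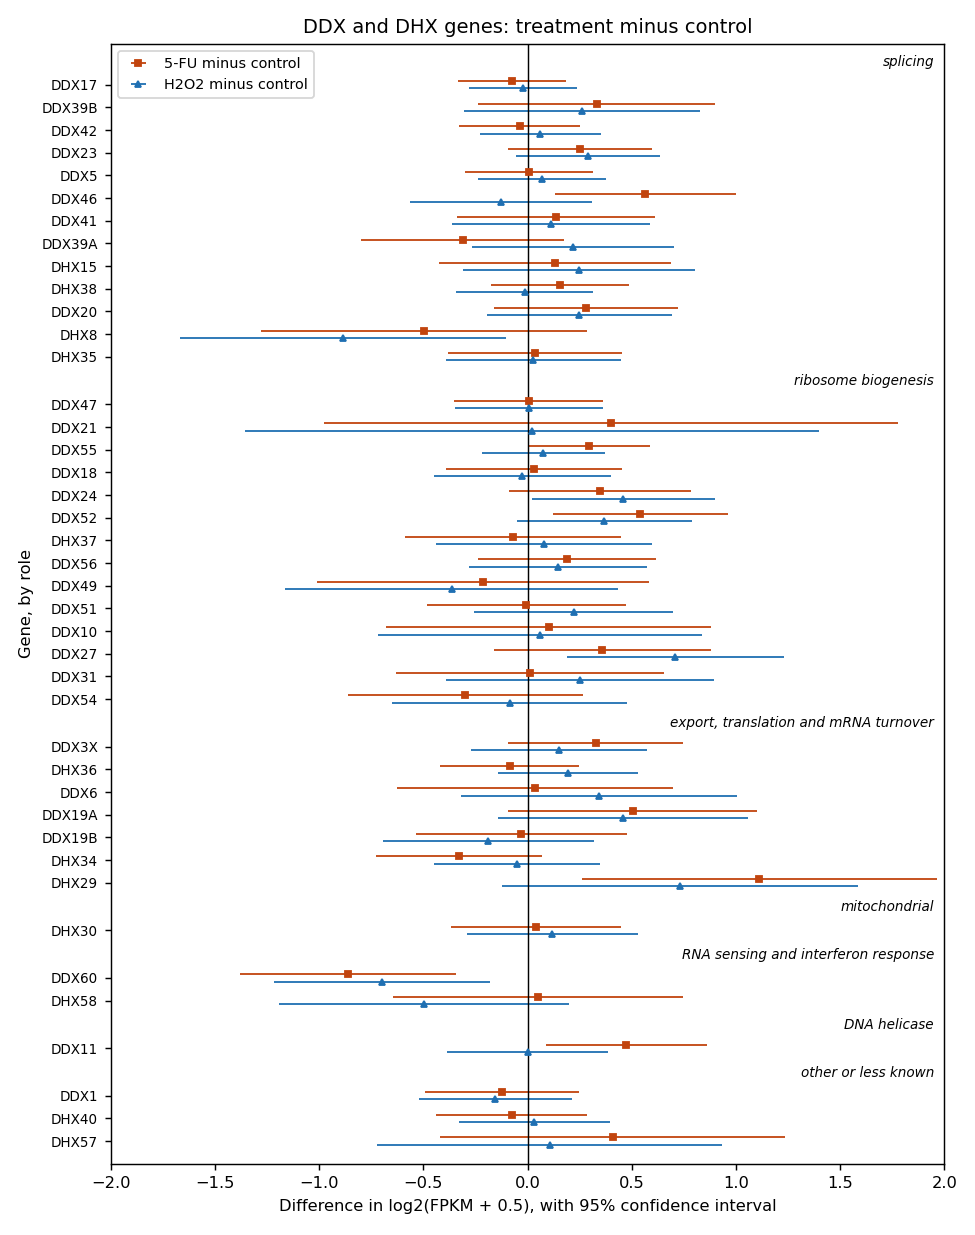
Difference of 5-FU (squares) and of H2O2 (triangles) from control for each of the 41 tested helicase genes, in log2(FPKM + 0.5) with its 95% confidence interval from limma, grouped by role and ordered by level within a role. Most intervals span 0, and the values run from -0.86 (DDX60) to 1.11 (DHX29) for 5-FU and from -0.89 (DHX8) to 0.73 (DHX29) for H2O2.

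More of the listed helicase signal belonged to the 13 genes with a role in splicing than to any other role, and they summed to 188.9 to 228.8 FPKM per library. For 5-FU, 9 of the 13 had a log2 difference above 0 and 4 below, and for H2O2 the split was the same, with medians of 0.13 and 0.07. None of the 13 passed the adjusted threshold in any comparison.

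DDX46 had the highest log2 difference of the splicing members for 5-FU, against control and against H2O2. It is the human counterpart of yeast Prp5, which helps to place the U2 particle on the branch site of an intron. Its listed transcripts (chr5:134773785-134829932) stood at 9.58, 7.23 and 10.6 FPKM in control, 11.2, 13.2 and 17.0 in 5-FU and 7.42, 8.49 and 8.86 in H2O2. All 3 libraries of 5-FU were above all 6 others. The log2 difference from control was 0.56 (SE 0.20, limma adjusted p = 0.204), and that between 5-FU and H2O2 was 0.69 (95% interval 0.26 to 1.13, limma adjusted p = 0.219). Leaving out 5-FU replicate 3 brought the first to 0.41. All 5 of its tested transcripts were higher in 5-FU than in control and than in H2O2, by their fitted differences.

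Within DDX46, 2 models that each cross 1 end of the same intron were set side by side. Their values belong to whole models and not to the ends of that intron, and the 2 models were not tested against each other. DDX46-209, whose junction is the first window above, ends at position 134777894, close behind the 5′ splice site. It was at 2.003, 1.97 and 2.58 FPKM in control, 2.71, 2.77 and 3.58 in 5-FU and 1.28, 1.28 and 1.20 in H2O2. Each 5-FU library was thus above, and each H2O2 library below, all 3 controls. The log2 difference between 5-FU and H2O2 was 0.996 (SE 0.18, 95% interval 0.59 to 1.40, limma adjusted p = 0.269 over 22618 transcripts), and that of H2O2 from control was -0.61 (limma adjusted p = 0.542). Of all transcripts tested, 0.256% were separated from control by both treatments in opposite directions. DDX46-209 was the only such helicase transcript.

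DDX46-211, at the other end of the intron, was at 3.45, 2.20 and 3.90 FPKM in control, 3.76, 5.20 and 5.50 in 5-FU and 3.18, 3.54 and 2.93 in H2O2. Its H2O2 libraries lay among the controls, with a log2 difference of 0.04 (95% interval -0.48 to 0.56). The share of DDX46 held by DDX46-209 was 24.1% ± 3.14 in control, 22.1% ± 1.83 in 5-FU and 15.3% ± 1.91 in H2O2 (SD, n = 3 each). DDX46-211 was looked at after its values were seen.

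DDX23, the counterpart of yeast Prp28, acts at the 5′ splice site when the U6 particle takes the place of U1. It was at 18.8, 15.6 and 17.7 FPKM in control, 23.4, 22.01 and 17.1 in 5-FU and 20.4, 20.4 and 23.1 in H2O2. H2O2 was above control without overlap, at a log2 difference of 0.29 (SE 0.16, adjusted p by limma = 0.606), and 5-FU overlapped control. A single transcript, DDX23-203, which keeps a whole intron of 130 bases, was at 0.190, 0.711 and 0.715 FPKM in control, 2.49, 2.08 and 2.06 in 5-FU and 0.838, 1.98 and 3.12 in H2O2. Every treated library was above every control for it. The log2 differences were 1.43 (95% interval 0.61 to 2.24, limma adjusted p = 0.235) for 5-FU and 1.19 (95% interval 0.37 to 2.004, limma adjusted p = 0.553) for H2O2, from control values under 1 FPKM. No helicase transcript had a smaller adjusted p for 5-FU against control.

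DDX39B and DDX39A are close paralogs that join the spliceosome and hand the finished mRNA to the export machinery. Reads of the pair may be divided wrongly between them. Listed transcripts of DDX39B also overlap exons of the read-through gene ATP6V1G2-DDX39B on the same strand. DDX39B was at 46.6, 21.1 and 30.1 FPKM in control, 39.8, 38.9 and 38.5 in 5-FU and 29.2, 42.5 and 41.4 in H2O2. Its controls spanned both treatments, at log2 differences of 0.33 (limma adjusted p = 0.579) and 0.26 (limma adjusted p = 0.788). Without control replicate 1 the differences were 0.62 and 0.55, and without control replicate 2 they were 0.06 and -0.01.

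DDX39A was at 7.97, 9.24 and 8.85 FPKM in control, 6.57, 6.38 and 7.78 in 5-FU and 9.79, 7.39 and 14.4 in H2O2. 5-FU was below control without overlap, at a log2 difference of -0.31 (SE 0.22, adjusted p by limma = 0.531). Most of it was a transcript assembled from the reads, DDX39A-OT1, which was at 1.87, 0 and 1.84 FPKM in control and at 0 in the 6 treated libraries. Without it the difference was -0.09 (limma adjusted p = 0.906), and 5-FU then overlapped control. DDX39A-204, which keeps a whole intron of 334 bases, went another way. It was at 1.04, 1.09 and 0.696 FPKM in control, 1.45, 1.31 and 2.22 in 5-FU and 3.47, 1.84 and 4.86 in H2O2. Both treatments were above control without overlap, at log2 differences of 0.57 for 5-FU and 1.36 (95% interval 0.66 to 2.06, limma adjusted p = 0.498) for H2O2.

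**Figure D3:**
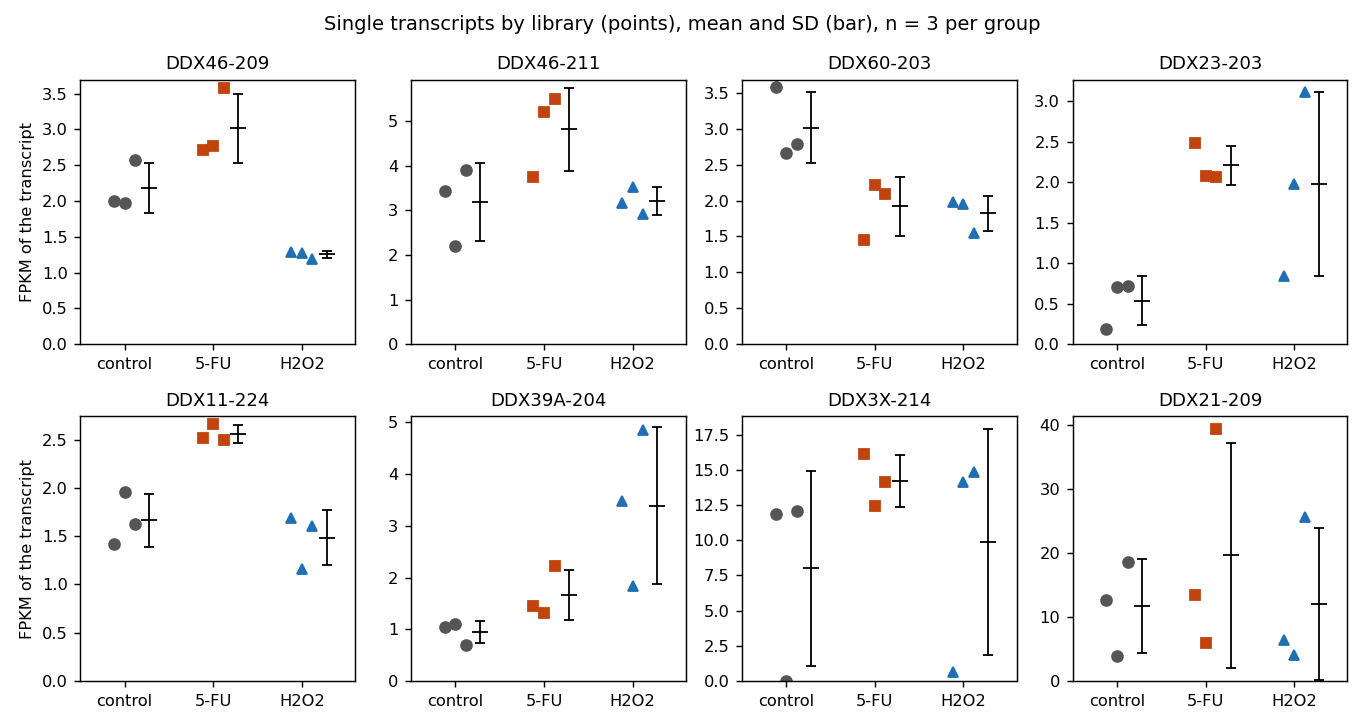
FPKM of 8 single transcripts in each library (points) with the mean and SD of each group (bar, n = 3), on linear axes from 0. DDX46-209 shows 5-FU above and H2O2 below the controls, DDX23-203 and DDX39A-204 show both treatments above them, and DDX3X-214 is near 0 in 1 control and 1 H2O2 library.

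DHX8, the counterpart of yeast Prp22, frees the spliced mRNA from the spliceosome. It was at 3.08, 1.61 and 2.04 FPKM in control, 1.14, 2.40 and 0.923 in 5-FU and 0.623, 0.690 and 1.78 in H2O2. The groups overlapped, at a log2 difference for H2O2 of -0.89 (95% interval -1.67 to -0.10, limma adjusted p = 0.506), and the gene is named here after its values were seen. Its transcript DHX8-203, which keeps a whole intron of 2807 bases, was at 2.84, 1.59 and 1.75 FPKM in control, 0.947, 2.37 and 0.595 in 5-FU and 0.276, 0.334 and 1.36 in H2O2. H2O2 was below control without overlap (log2 difference -1.24, SE 0.43, limma adjusted p = 0.588).

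DDX42, which binds the SF3B part of the U2 particle, was at 30.4, 38.1 and 37.3 FPKM in control, 33.9, 33.7 and 34.8 in 5-FU and 36.4, 35.4 and 38.0 in H2O2. All 5-FU libraries were below all H2O2 libraries, although the log2 difference was only -0.10 (95% interval -0.39 to 0.19, limma adjusted p = 0.816), and the controls spanned both. DHX38, the counterpart of yeast Prp16, was at 4.54, 5.51 and 4.56 FPKM in control, 5.598, 5.36 and 5.43 in 5-FU and 5.13, 4.81 and 4.49 in H2O2. Here 5-FU was above H2O2 without overlap, by 0.17 (limma adjusted p = 0.703).

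DDX17 held transcripts that lay on opposite sides of control. DDX17-201, which keeps the longest whole intron of the family, was at 44.3, 48.7 and 46.6 FPKM in control, 42.0, 41.3 and 42.3 in 5-FU and 46.3, 44.5 and 43.7 in H2O2. DDX17-210 was at 3.33, 3.51 and 2.93 FPKM in control, 8.88, 4.03 and 3.76 in 5-FU and 3.85, 4.37 and 5.23 in H2O2. For 5-FU the first lay below and the second above all controls, at log2 differences of -0.15 (limma adjusted p = 0.729) and 0.59 (limma adjusted p = 0.513). Without 5-FU replicate 1 the second was 0.23. The gene as a whole differed by -0.07 (95% interval -0.33 to 0.19).

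DDX41, a splicing factor that is also known as a sensor of nucleic acids, had 2 transcripts that each cross 1 end of an intron, chr5:177515259-177515684. DDX41-217 also holds other whole introns, of 107 and 129 bases, and another listed model, DDX41-205, holds the named intron whole. The values below therefore belong to whole models and not to the ends of that intron. DDX41-207 was at 3.12, 1.19 and 3.38 FPKM in control, 2.44, 2.02 and 2.83 in 5-FU and 1.67, 0.696 and 1.01 in H2O2, and 5-FU was above H2O2 without overlap (log2 difference 0.88, limma adjusted p = 0.543). DDX41-217 was at 1.59, 1.19 and 0.351 FPKM in control, 0.680, 0.644 and 0.123 in 5-FU and 1.103, 1.32 and 0.718 in H2O2, the reverse order (log2 difference -0.69, limma adjusted p = 0.650). The controls of both spanned nearly the whole range.

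The 14 tested genes of ribosome biogenesis gave medians of 0.07 for 5-FU and 0.08 for H2O2, with 10 and 11 of them above 0. Their summed level was 96.5 to 164.0 FPKM per library. All of the 3 that were separated from control by 5-FU, DDX24, DDX52 and DDX55, were higher, as were the 3 separated by H2O2, DDX24, DDX27 and DDX52. That is 21.4% of the 14 in each comparison, against 22.3% of all genes for 5-FU and 15.4% for H2O2. None passed the adjusted threshold.

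DDX52, whose yeast counterpart Rok1 works on the small ribosomal subunit, was at 7.01, 5.999 and 7.03 FPKM in control, 7.44, 11.1 and 11.9 in 5-FU and 7.88, 9.03 and 9.40 in H2O2. Both treatments lay above control without overlap. The log2 differences were 0.54 (SE 0.19, limma adjusted p = 0.205) and 0.37 (SE 0.19, limma adjusted p = 0.597). The main part of it was DDX52-211, at 4.73, 3.89 and 4.04 FPKM in control, 5.52, 8.89 and 7.30 in 5-FU and 5.25, 6.29 and 6.18 in H2O2 (log2 difference for 5-FU 0.69, 95% interval 0.24 to 1.15, limma adjusted p = 0.285). This model overlaps 2 antisense genes in V29, and the handling of strand was not given in the sources used here, so their reads cannot be told apart from its own.

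DDX24, a helicase of the large ribosomal subunit, was at 8.58, 7.45 and 7.31 FPKM in control, 9.57, 11.8 and 8.83 in 5-FU and 8.62, 10.4 and 14.2 in H2O2. Every treated library was above every control, the nearest by a narrow margin. The log2 differences were 0.35 (limma adjusted p = 0.432) for 5-FU and 0.46 (limma adjusted p = 0.531) for H2O2, the latter 0.27 without H2O2 replicate 3.

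DDX27, which takes part in the maturation of the large-subunit RNA, was at 0.646, 1.26 and 1.13 FPKM in control, 1.37, 1.74 and 1.16 in 5-FU and 1.72, 1.63 and 2.54 in H2O2. Only H2O2 was above control without overlap, at a log2 difference of 0.71 (SE 0.23, 95% interval 0.19 to 1.23, limma adjusted p = 0.465). Both of its listed transcripts overlap ZNFX1 on the opposite strand, so the source of the signal is uncertain. DDX55, another large-subunit factor, was at 14.1, 13.5 and 14.996 FPKM in control, 18.3, 16.02 and 18.3 in 5-FU and 14.3, 14.6 and 16.1 in H2O2, higher in 5-FU than in control by 0.29 (limma adjusted p = 0.322). DDX55-213, a minor transcript of it, was at 0.573, 1.25 and 0.737 FPKM in control, 0.787, 0.946 and 0.160 in 5-FU and 1.27, 1.25 and 2.01 in H2O2. It was instead lower in 5-FU than in H2O2 without overlap, by a log2 difference of -0.89 (limma adjusted p = 0.522).

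DDX47, which processes ribosomal RNA, was at 35.3, 33.0 and 29.6 FPKM in control, 29.6, 29.7 and 39.5 in 5-FU and 29.6, 31.6 and 37.3 in H2O2. The groups overlapped, with log2 differences below 0.01 in size for both treatments and a 95% interval of -0.35 to 0.36 each. All 7 of its transcripts overlap exons of APOLD1 on the same strand in V29. DDX21, given above, had intervals of -0.98 to 1.78 and -1.35 to 1.40, which span a difference of 1 log2 unit.

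**Figure D4:**
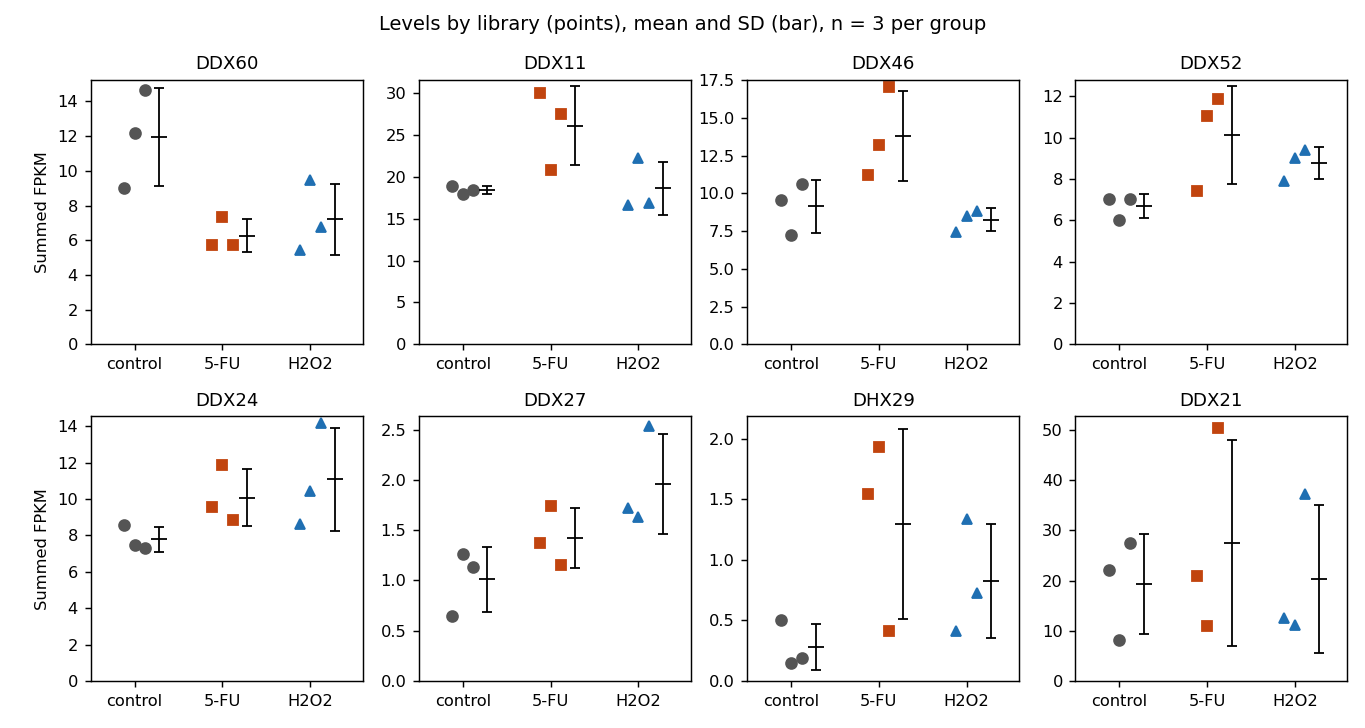
Summed FPKM of 8 helicase genes in each library (points) with the mean and SD of each group (bar, n = 3), on linear axes from 0. DDX60 is lower in 5-FU than in control, DDX11, DDX46, DDX52 and DDX24 are higher, and DDX27 is higher in H2O2. The groups overlap for DHX29, through control replicate 1 (0.502 FPKM), and widely for DDX21.

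Among the 7 tested genes of export, translation and mRNA turnover, 4 were above 0 for 5-FU and 5 for H2O2, with medians of 0.04 and 0.19. DDX3X, which helps ribosomes onto mRNAs with structured leaders, was at 41.5, 30.9 and 40.0 FPKM in control, 46.0, 45.0 and 49.2 in 5-FU and 31.0, 47.1 and 48.2 in H2O2. 5-FU was above control without overlap, at a log2 difference of 0.33 (SE 0.19, adjusted p by limma = 0.446).

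Much of that came from 1 of its 23 tested transcripts. DDX3X-214, near the 5′ end of the gene, was at 0.027 FPKM in control replicate 2 and 0.637 in H2O2 replicate 1, and between 11.9 and 16.1 in the other 7 libraries. The rest of DDX3X together was at 29.6, 30.8 and 27.9 FPKM in control, 29.9, 32.6 and 35.0 in 5-FU and 30.3, 32.9 and 33.3 in H2O2, and 5-FU then overlapped control. Without control replicate 2 the log2 difference of the whole gene was 0.19. DDX3X-269, at the other end of the gene, was at 0.603, 0.691 and 0.587 FPKM in control, 0.556, 0.407 and 0.586 in 5-FU and 0.512, 0.444 and 0.591 in H2O2, lower in 5-FU than in control by a narrow margin (log2 difference -0.15, 95% interval -0.56 to 0.26).

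DHX34, a helicase of nonsense-mediated decay with 1 listed transcript, was at 1.06, 1.23 and 1.17 FPKM in control, 0.881, 0.816 and 0.746 in 5-FU and 1.31, 0.873 and 1.13 in H2O2. 5-FU was below control without overlap (log2 difference -0.33, SE 0.18, limma adjusted p = 0.408). DHX29, which helps to scan structured leaders, had the largest difference of the family for 5-FU, and it is named after its values were seen. It was at 0.502, 0.151 and 0.191 FPKM in control, 1.55, 1.93 and 0.416 in 5-FU and 0.415, 1.33 and 0.727 in H2O2, so the groups overlapped. Its log2 difference was 1.11 (95% interval 0.26 to 1.97, limma adjusted p = 0.202) from values near the filter, and its transcript DHX29-202 overlaps an antisense gene.

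DDX60, an interferon-induced helicase of the antiviral response, had the lowest log2 difference of the tested helicase genes for 5-FU against control. Its listed transcripts (chr4:168236029-168318807) were at 9.01, 12.2 and 14.7 FPKM in control, 5.70, 7.36 and 5.74 in 5-FU and 5.45, 9.45 and 6.73 in H2O2. 5-FU lay below control without overlap, and 1 H2O2 library reached into the control range. The log2 differences were -0.86 (SE 0.23, 95% interval -1.38 to -0.34, limma adjusted p = 0.125) and -0.70 (SE 0.23, 95% interval -1.21 to -0.18, limma adjusted p = 0.465). The first was the smallest adjusted p of any helicase gene.

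All 4 tested transcripts of DDX60 had differences below 0 for both treatments. DDX60-203, whose junction is shown above, was at 3.58, 2.67 and 2.79 FPKM in control, 1.45, 2.22 and 2.10 in 5-FU and 1.99, 1.947 and 1.55 in H2O2. DDX60-211, at the 5′ end of the listed span and not in V29, was at 4.58, 4.25 and 5.99999 FPKM in control, 3.11, 2.93 and 2.82 in 5-FU and 2.89, 3.69 and 4.24 in H2O2. Both treatments were below control without overlap for each of the 2 transcripts. For DDX60-211 in H2O2 the margin was narrow, with the highest H2O2 library at 4.24 FPKM and the lowest control at 4.25. The log2 differences of DDX60-203 were -0.54 (limma adjusted p = 0.400) for 5-FU and -0.59 (limma adjusted p = 0.586) for H2O2, and those of DDX60-211 were -0.65 (limma adjusted p = 0.309) and -0.41 (limma adjusted p = 0.670). A further transcript, DDX60-208, varied widely within 1 group, at 0.069, 4.29 and 3.803 FPKM in control. It is part of the gene sum, and the gene was not fitted without it. With 1 library left out, the log2 difference of DDX60 for 5-FU ran from -1.04 to -0.71. DHX58, a relative of the viral RNA sensor family, was at 1.19, 1.01 and 1.38 FPKM in control, 1.15, 0.835 and 1.91 in 5-FU and 0.976, 1.05 and 0.246 in H2O2, with all groups overlapping.

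DDX11 is a DNA helicase, needed for the cohesion of sister chromatids, that carries a DDX symbol. It was at 18.96, 17.98 and 18.4 FPKM in control, 29.999, 20.8 and 27.5 in 5-FU and 16.7, 22.3 and 16.9 in H2O2. 5-FU lay above control without overlap (log2 difference 0.47, SE 0.17, 95% interval 0.09 to 0.86, limma adjusted p = 0.224), and the H2O2 libraries lay around control, with a 95% interval of the log2 difference of -0.39 to 0.39. Of its 9 tested transcripts, which are models of 1 gene and not independent, 4 were higher in 5-FU than in control without overlap, where 17.8% of all transcripts did not overlap in either direction. DDX11-224, which keeps whole introns, was at 1.42, 1.96 and 1.62 FPKM in control, 2.52, 2.67 and 2.50 in 5-FU and 1.69, 1.16 and 1.60 in H2O2, and was chosen after its values were seen. DDX11-212 was at 2.84, 1.44 and 1.88 FPKM in control, 3.36, 2.47 and 3.52 in 5-FU and 1.948, 1.78 and 1.67 in H2O2, higher in 5-FU than in H2O2 without overlap, by a log2 difference of 0.64 (limma adjusted p = 0.510). DDX11 has near-identical copies elsewhere in the genome, including DDX12P, and its reads may be divided among them.

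In the remaining tested genes both treatments overlapped control. DHX30, a helicase with a mitochondrial role, was at 3.64 to 5.65 FPKM over all libraries. Of its sum, 40.8% was DHX30-IT1, which is not in V29. DDX1, a part of the tRNA ligase complex, was at 17.7 to 25.9 FPKM. DHX40, whose function is less known, was at 7.70 to 10.47 FPKM, while its transcript DHX40-206 was at 0.165, 0.802 and 1.29 FPKM in control, 1.24, 1.05 and 0.877 in 5-FU and 1.34, 1.44 and 2.96 in H2O2. H2O2 was above control and above 5-FU without overlap for it (log2 difference from control 0.997, limma adjusted p = 0.596).

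As with the gene sums, no single transcript was called. None of the 168 helicase transcripts passed the adjusted threshold for 5-FU (0.00442% of all transcripts did), for H2O2 (0.0133%) or between the treatments (0.0133%). The unadjusted p was under 0.05 for 14, 11 and 14 of them in the same order, against 10.4%, 7.6% and 8.45% of all transcripts. The groups did not overlap for 25, 24 and 24, or 14.9%, 14.3% and 14.3%, against 17.8%, 13.7% and 14.3% of all transcripts. The same transcript led the gene in all 3 groups for 31 of the 41 tested genes.

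**Figure D5:**
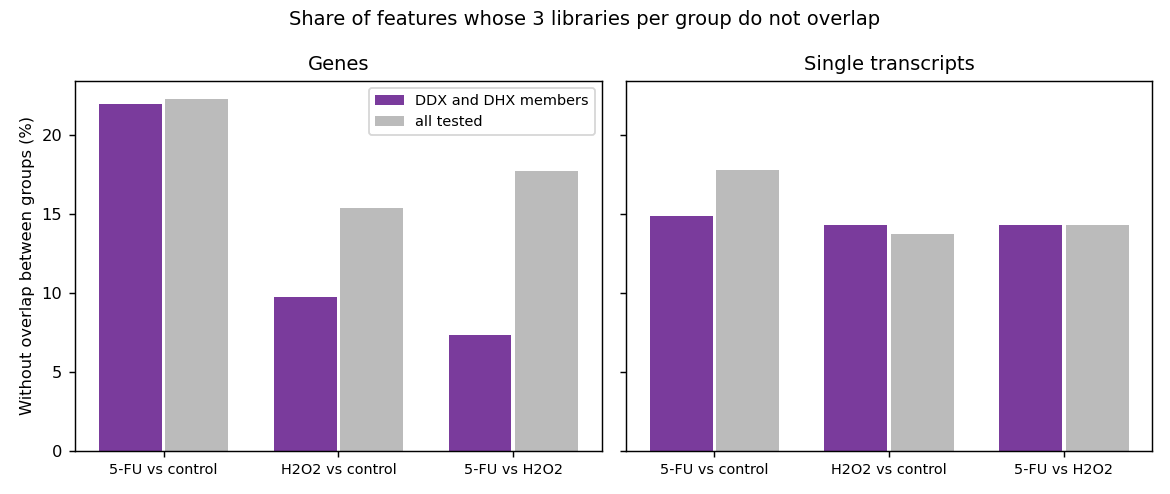
Share of features whose libraries do not overlap between 2 groups of 3, in percent, for the helicase members and for everything tested, by comparison, for genes (left) and single transcripts (right). The helicase genes are at 22%, 9.8% and 7.3% against 22.3%, 15.4% and 17.7%, and the helicase transcripts at 14.9%, 14.3% and 14.3% against 17.8%, 13.7% and 14.3%.

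Genes that work beside the helicases were also examined. Of 23 RNA helicases without a DDX or DHX symbol, 17 were tested and none passed the adjusted threshold in any comparison, with an unadjusted p under 0.05 for 4 (5-FU against control), 1 (H2O2 against control) and 3 (between the treatments), where 15.5%, 9.07% and 11.6% of all genes had one. Their median log2 differences were 0.18 for 5-FU and 0.12 for H2O2. The most abundant were EIF4A2, a translation initiation helicase, at a mean of 76.5 FPKM, and SNRNP200, the helicase that unwinds U4 from U6, at 44.8 FPKM. Of 35 partners and regulators, such as G-patch proteins and initiation factors, 26 were tested and none passed, with an unadjusted p under 0.05 for 2, 1 and 3 in the same order, and medians of 0.01 and 0.12. EIF4H and RBM5 were the most abundant of these, at 67.7 and 38.2 FPKM.

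Of 11 epithelial markers, 7 were listed and tested, KRT8 and KRT18 among them, with no adjusted p under 0.05. The unadjusted p was under 0.05 for 2, 1 and 2 in the same order, where 15.5%, 9.07% and 11.6% of all genes had one. The 2 for 5-FU were KRT8 and KRT19, below control without overlap at log2 differences of -1.12 (limma adjusted p = 0.116) and -0.65 (limma adjusted p = 0.166). For H2O2 it was KRT19, also below control without overlap, at -0.50 (limma adjusted p = 0.511). KRT18 was instead above control without overlap in H2O2, at 0.19 (limma adjusted p = 0.673). Of all genes, 22.3% did not overlap control in 5-FU and 15.4% did not in H2O2. The median log2 difference of the 7 was -0.28 for 5-FU and 0.12 for H2O2, so the markers did not all go 1 way. These keratins are singled out with their values in view, and the part of this in the helicase values was not tested. Of 7 markers of cells that a carcinoma line should lack, 6 were listed, with PTPRC and COL1A2 among those at 0 in every library and COL1A1 at most at 0.724 FPKM. Sequencing depth is unknown, since the deposited values hold no counts, and a library's listed FPKM added up to 56096.4 at the lowest and 60642.1 at the highest.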

How the data were processed

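Total RNA of SNU16 cells was sequenced in 9 libraries, 3 per group, from a strand-marking kit per the labels' protocols. The authors deposited FPKM per transcript, 1 column per library. Per the submitters' processing notes, the build was GRCh38 and the tools were StringTie, HISAT2 2.0.5 and edgeR 3.22.5, with no roles stated. The annotation release and the handling of strand were not given in the sources used here. Of the values above 0, the smallest was 1e-06 FPKM, so whole reads were not recovered, depth is unknown and no counting interval is given.

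FPKM were summed per gene identifier. Genes and single transcripts with at least 0.5 FPKM in at least 3 of 9 libraries were tested, 9947 and 22618 of them. limma 3.58.1 in R 4.3.3 (lmFit, eBayes with trend) was fitted to log2(FPKM + 0.5) over all 9 libraries, without a term for the replicate number, which left 6 residual degrees of freedom. Two-sided p-values were adjusted by Benjamini-Hochberg over everything tested, and 0.05 was the threshold. The procedure was tested on simulated data. On this scale a log2 difference understates the change of low genes. With 3 against 3 libraries an exact permutation test cannot go below 0.1, so none is given.

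Transcript classes, intron edges, overlaps and sequences come from GENCODE V29 (GRCh38) by identifier. All 45 genes are summed over all their listed transcripts, 2 of which were assembled from the reads. Another 8 human genes with a matching symbol were not analysed here. No column of sample values was left unused.

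The members, roles and lists were chosen with earlier results of these data known. Values per library were given for called members, for the 4 highest and 4 lowest log2 differences per comparison among genes without overlap, for the 6 most abundant genes, for the 3 highest and 3 lowest such transcripts with a mean of 1 FPKM in the higher group, and for genes whose transcripts were separated in opposite directions. Of the lists of related genes, the 2 most abundant were named. Any other member or transcript with values was picked with its values in view. Alternatives changed the pseudocount to 0.1 or 1, the filter to none or to 1 FPKM, the scaling to median of ratios, and the design to a replicate term, array weights, 2 groups only, or fewer libraries.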

Additional observations from a re-analysis of the deposited data

Results flagged for a closer look

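DDX46-209, a retained-intron transcript of the splicing helicase DDX46, stood out because the treatments lay on opposite sides of control. All 3 libraries of 5-FU were above, and all 3 of H2O2 were below, all 3 controls. The log2 difference between 5-FU and H2O2 was 0.996 (limma adjusted p = 0.269), which did not pass the threshold, and it ranged from 0.83 to 1.19 over the 19 alternatives. Of 22618 transcripts tested, 58 showed such a pattern, or 0.256%. Its cause was not tested.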

How the results depend on the processing

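No helicase gene or transcript passed the adjusted threshold under any of the 19 alternatives. The count of all genes called was less stable. For 5-FU against control it was 77, but 48 with no filter, 0 with a replicate block, 21 with 2 groups in the fit, 3 without the treatment libraries numbered 3, and 0 to 88 when 1 library was left out (20 or fewer without any 1 control or 5-FU library or H2O2 replicate 1). For H2O2 against control it was 0, but 6 without those libraries and 0 to 3 when 1 was left out. For 5-FU against H2O2 it was 7, but 0 with no filter, with the replicate block, with 2 groups or with assembled transcripts left out (added after seeing the data), 3 with array weights, 4 without the treatment libraries numbered 3, and 0 to 4 when 1 was left out. Between libraries of different groups with the same replicate number, the deviations correlated between -0.04 and 0.08. These values cannot tell whether such libraries shared a culture or a batch, which the labels do not state.

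Of the 47 named values, 39 kept their direction throughout. With median-of-ratios scaling, array weights and without the treatment libraries numbered 3, DDX47 was at -0.0301, -0.0455 and -0.131 for 5-FU and at -0.0240, -0.0443 and -0.0882 for H2O2, and DDX21 for H2O2 was at -0.0075, -0.148 and -0.518. DDX21 for 5-FU was at -0.16 without those libraries. With 1 library left out, DDX21 ran from -0.16 to 0.91 for 5-FU and -0.52 to 0.35 for H2O2, DDX47 from -0.131 to 0.0729 and -0.0882 to 0.0768, DDX42 from -0.140 to 0.0201 and -0.0416 to 0.119, and for H2O2 DDX17 from -0.0591 to 0.0170 and DDX39B from -0.0101 to 0.552. The cause was not tested. DDX3X-269 gave no value with the filter at 1 FPKM. Unknown depth limits what can be said of transcripts under 1 FPKM.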
